A study of Mus musculus with 2 samples.

Results

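The cytosolic ribosomal protein genes are the nuclear genes for the proteins of the ribosome that translates messenger RNA in the cytoplasm. They were taken by name from the array's own annotation: names that start with Rpl or Rps followed by a digit, together with Rplp0, Rplp1, Rplp2 and Rpsa. Names of the S6 kinases (Rps6k) and names marked as pseudogenes were left out. This gave 87 of the 37074 gene names on the array, and 86 of them were among the 26528 genes measured on both arrays. All 77 canonical mouse ribosomal protein names that were searched for were on the array and measured. The other 10 names were tissue-specific or duplicated relatives and a name that only looks alike.

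The cochlea, the hearing organ of the inner ear, was taken from female C57BL/6 mice, an inbred laboratory strain, at 7 weeks of age. The noise group had 2 hours of intense noise and was dissected 3 hours after it, and the baseline group had no noise. Total RNA of each group was measured on 1 Agilent one-colour array, a glass slide with probes of 60 bases. Each group therefore had 1 array and no replicate, and the labels do not say how many mice were behind it, so the values below set 2 samples side by side and carry no test across animals. The comparison addresses which cochlear transcripts differ early after acoustic trauma.

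A ribosome has a large subunit, whose proteins are named Rpl, and a small subunit, whose proteins are named Rps. The large subunit joins the amino acids and the small subunit reads the messenger RNA. Each ribosome carries 1 copy of nearly every protein, and the genes are among the most actively expressed of any cell. Their messenger RNAs start with a terminal oligopyrimidine (TOP) tract, through which the kinase mTOR controls how much of the existing message is translated. An array reads the amount of a message and not its translation. In whole cochlear tissue, fewer cells of a type and less RNA per cell cannot be told apart.

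Levels are log2 of the scanner software's processed signal minus the array's 75th percentile over all probes, so a level of 0 is that percentile and a level of 1 is 2-fold above it. Ratios are noise minus baseline on the log2 scale. A gene took the median over its probes that were well above background on both arrays. The median was taken separately for the level and the ratio, so a gene's ratio can differ from the difference of its levels. A probe's brightness depends on its own sequence, so levels of different genes were not ranked. The arrays were of similar brightness, with 75th percentiles of 316 (noise) and 278 (baseline) in processed signal, and with 75.3% and 75.2% of probes well above background. Of the 186 probes of these genes, 182 were measured on both arrays, 4 on neither and 0 on 1 array only. None of their 771 spots per array was saturated.

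The ribosomal protein genes lay close together and close to 0 at 3 hours after noise. Their median ratio was 0.05, against -0.01 over all measured genes, and 82 of 86 had a mean level above the 75th percentile. None of the 86 was 2-fold higher and none was 2-fold lower, where 0.611% of all measured genes were 2-fold higher and 1.25% were 2-fold lower. These are 162 higher and 332 lower genes, a split that became 340 and 189 with spike-in scaling and 56 and 74 with normexp background correction. A ratio of 0.25 or more in either direction was found in 5 of 86, namely Rps12, Rpl9, Rpl23, Rpl36al and Rpl3l, against 33.9% of all genes. Above 0 stood 57 genes and below 0 stood 29, where 47.5% of all genes stood above 0. The SD of the ratio over the 86 genes was 0.12, and over all genes it was 0.35. Over the 8208 genes with a mean level above the 75th percentile, the SD was 0.28 and the median ratio 0.01. Of these 8208, 1840 had a ratio of 0.25 or more in either direction. They hold 82 of the 86 but are dimmer, with a median level after noise of 1.58 against 5.48 for the family. The direction of the small ratios of the family depended on the scaling. When the arrays were scaled on 8 probes for spike-in RNAs, which are added to each sample at labelling, the median of all genes moved up by 0.21, that of the ribosomal protein genes became 0.26, and 85 of 86 stood above 0. With that scaling 77.6% of all genes stood above 0. Before any scaling these 8 probes ran from -0.19 to 0.40 in log2 ratio, with a median of -0.03, a range wider than that shift, and the amounts added were not checked. Spike-in scaling adds 1 constant to every gene, so it leaves the distance of 0.06 between both medians as it is. With normexp background correction that distance was 0.13.

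**Figure D1:**
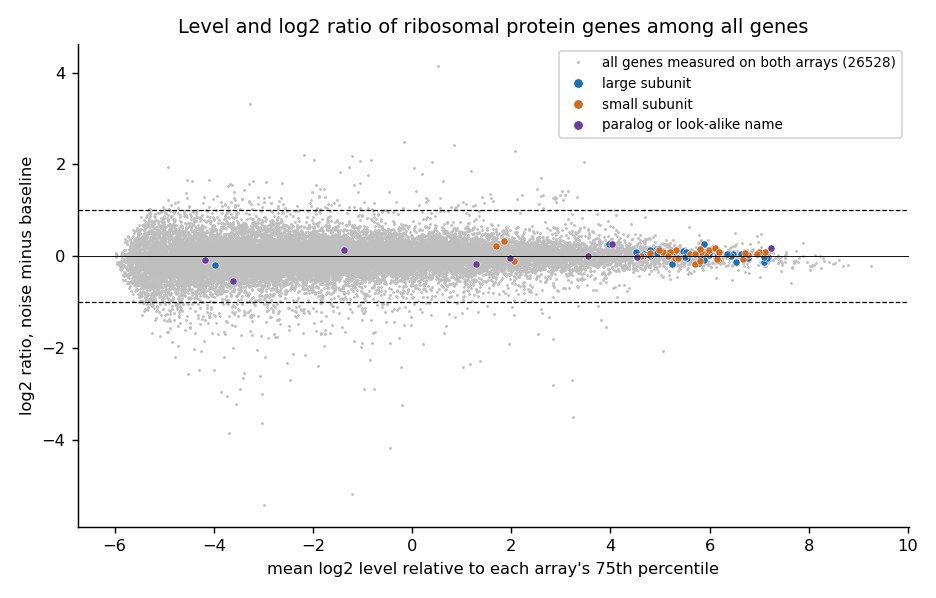
Each point is a gene measured on both arrays, with its mean log2 level over the 2 arrays relative to each array's 75th percentile on the x axis and its log2 ratio, noise minus baseline, on the y axis. Grey points are all 26528 genes, coloured points are the 86 ribosomal protein genes, and the dashed lines mark 2-fold. The coloured points form a narrow band around 0 at high levels, and the coloured point farthest from 0, Rpl3l at -0.54, lies at a low level.

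The array gave a direct measure of the spot error of such small ratios. On it 300 probes were printed 10 times each, and 65 of these belonged to 48 of the ribosomal protein genes. Repeat spots of these 65 probes differed by a median SD of 0.044 (noise) and 0.049 (baseline) on the log2 scale. A ratio from 10 spots per array had a standard error of 0.022, and the largest for any of the 65 probes was 0.031. The 65 probes had a median ratio of 0.06 with an SD of 0.10, so most of their spread was beyond spot error. The 235 other probes printed 10 times had a median of 0.03 and an SD of 0.20. Different probes of the same ribosomal protein gene differed with an SD of 0.13 over 59 genes with several probes, which is as large as the spread between the genes. Over all 9348 genes with several probes that SD was 0.27. These errors cover spots and probes within 1 pair of arrays. They include no repeat of the RNA extraction, labelling or hybridization, and not the spread between animals.

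The 46 large-subunit genes had a median ratio of 0.04, with 30 above 0 and 16 below, and ran from -0.19 (Rpl37) to 0.27 (Rpl23). The 31 small-subunit genes had a median of 0.07, with 23 above 0 and 8 below, and ran from -0.16 (Rps15) to 0.34 (Rps12). The 9 measured relatives and look-alikes had a median of -0.03, with 4 above 0 and 5 below. They also held the lowest of all 86 values.

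**Figure D2:**
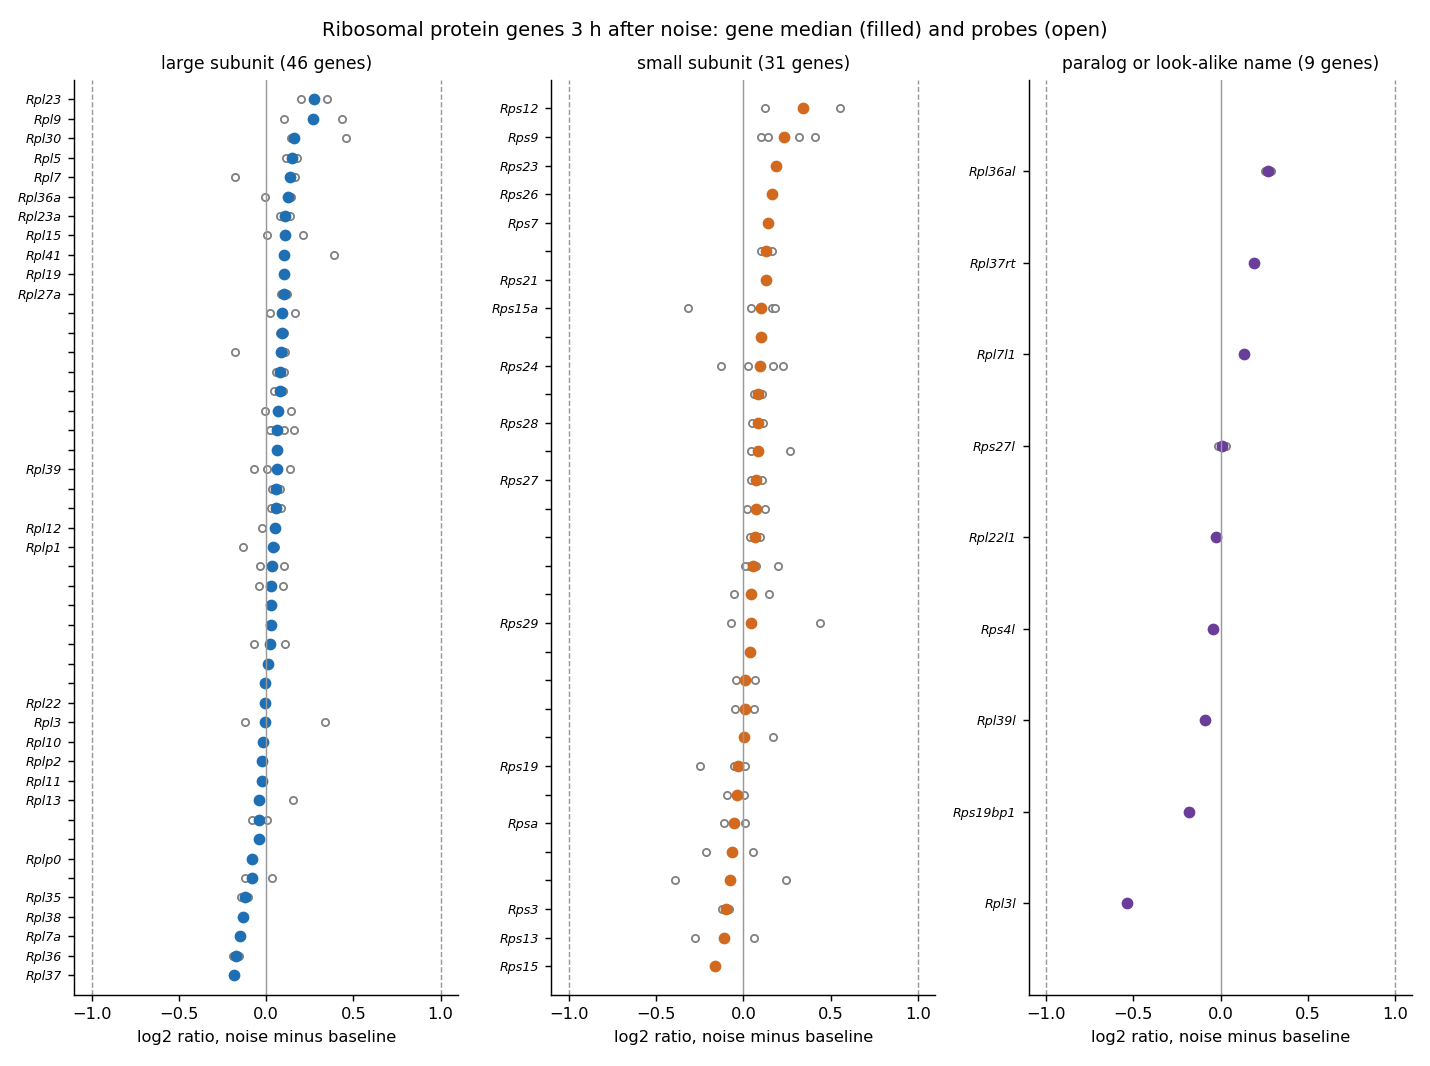
Filled points are the log2 ratio, noise minus baseline, of each of the 86 measured genes (median over probes) and open circles are the single probes, in panels for the 46 large-subunit genes, the 31 small-subunit genes and the 9 relatives and look-alikes. Genes that the text names are labelled, and dashed lines mark 2-fold. No gene reaches them, and in several genes the open circles lie on both sides of 0.

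Among large-subunit genes, 11 had ratios of 0.10 to 0.27, namely Rpl23, Rpl9, Rpl30, Rpl5, Rpl7, Rpl36a, Rpl23a, Rpl15, Rpl41, Rpl19 and Rpl27a. Another 19 lay between 0.01 and 0.09, and 11 lay between -0.08 and -0.01. The 5 lowest, at -0.19 to -0.12, were Rpl37, Rpl36, Rpl7a, Rpl38 and Rpl35. Among small-subunit genes, 8 had ratios of 0.10 to 0.34, among them Rps12, Rps9, Rps23, Rps26, Rps7, Rps21 and Rps15a. Another 15 lay between 0.00 and 0.10, 5 lay between -0.07 and -0.03, and Rps3, Rps13 and Rps15 lay at -0.16 to -0.10.

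The highest gene was Rps12, a protein of the small subunit's head, at 0.34, which is 1.27-fold. It rests on 2 probes that differ. The probe of the RefSeq transcript, chr10:23505428-23505711 on the minus strand of mm9, spans more than 60 bases of genome, as a probe across a splice junction does, and read 6.96 after noise and 6.83 at baseline, a ratio of 0.12. The other probe, of a cDNA clone, read -2.93 and -3.48, a ratio of 0.56. The bright probe is shown because the place of Rps12 at the top of the family rests on the other one:
Rps12 junction probe: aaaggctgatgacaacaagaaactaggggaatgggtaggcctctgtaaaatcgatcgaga

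Rpl9, a large-subunit protein, stood at 0.27 and repeats this pattern. Its bright probe, printed 10 times, read 6.14 and 6.04, a ratio of 0.10, and its dimmer one read 2.09 and 1.65, a ratio of 0.44. Rpl23 stood at 0.27 as well, and both its probes were bright. They read 6.52 (noise) and 6.32 (baseline), a ratio of 0.20, and 5.52 and 5.17, a ratio of 0.35, so both were on the high side of the family. Rps9, a small-subunit protein, was at 0.23 with ratios of 0.10, 0.14, 0.32 and 0.41 in its 4 probes. The probe of Rps9 printed 10 times gave the 0.10.

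On the low side, among canonical genes, stood Rpl37 at -0.19, read by 1 dim probe at -4.07 (noise) and -3.88 (baseline). Rpl36 was at -0.17 and has more spots: both its probes were printed 10 times and gave -0.19 and -0.16, with spot standard errors of 0.016 and 0.017. Of these 2 probes, 1 has its array coordinates on the X chromosome, which is not where RefSeq places the gene. Rps15 was at -0.16, from 5.63 and 5.79. Rpl7a was at -0.15, with the same value in both its probes. With spike-in scaling Rpl37, Rpl36, Rps15 and Rpl7a all moved to slightly above 0, at 0.03 to 0.06.

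Rps29, Rps15a and Rpl3 had wide ranges between probes. In Rps29 3 bright probes gave -0.07, 0.04 and 0.05, and 1 probe of an Ensembl transcript at a level of -5.69 at baseline gave 0.44. The 3 bright probes have array coordinates on chromosome 2, and the dim one lies on chromosome 12, where RefSeq places the gene. In Rps15a, likewise, 3 bright probes gave 0.04 to 0.18 and 1 dim one, at -4.60 and -4.29, gave -0.32. In Rpl3 the probe at 3.29 and 2.96 gave 0.34, and the brighter ones gave -0.01 and -0.12. In these 3 genes the probe farthest from the others was the dimmest.

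A relation of ratio to brightness ran through the family. Over the 163 measured probes of these genes above the 75th percentile, the ratio fell with the mean level, with a Pearson correlation of -0.39 and a Spearman correlation of -0.34. These are probes within 1 pair of arrays that share labelling and scan, and the correlation is given as a description. The 47 probes at levels of 0 to 5 had a median ratio of 0.10, the 55 at 5 to 6 had 0.04, and the 61 above 6 had 0.02. None of those 61 had a ratio of 0.25 or more in either direction. Other probes of the array had median ratios of 0.01 at levels of 0 to 5, 0.01 at 5 to 6 and -0.03 at 6 to 9. In the lowest band the other probes were dimmer, with a median level of 1.60 against 4.43. The relation was also seen within genes. Of 57 genes with several probes above the 75th percentile, the brightest probe had a lower ratio than the dimmest in 39 and a higher ratio in 18, with a median difference of -0.06. Among other genes the brightest had the lower ratio in 1222 of 2121, or 57.6%, with a median difference of -0.04, and in the ribosomal protein genes it was 68.4%. After a loess fit of the ratio on the level over all probes, the correlation was -0.34 and the brightest probe was lower in 37 of 57. Before that fit the number of G and C bases in the probe had a Pearson correlation of -0.0003 with the ratio and a Spearman correlation of -0.04. After the fit these were -0.008 and -0.05.

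**Figure D3:**
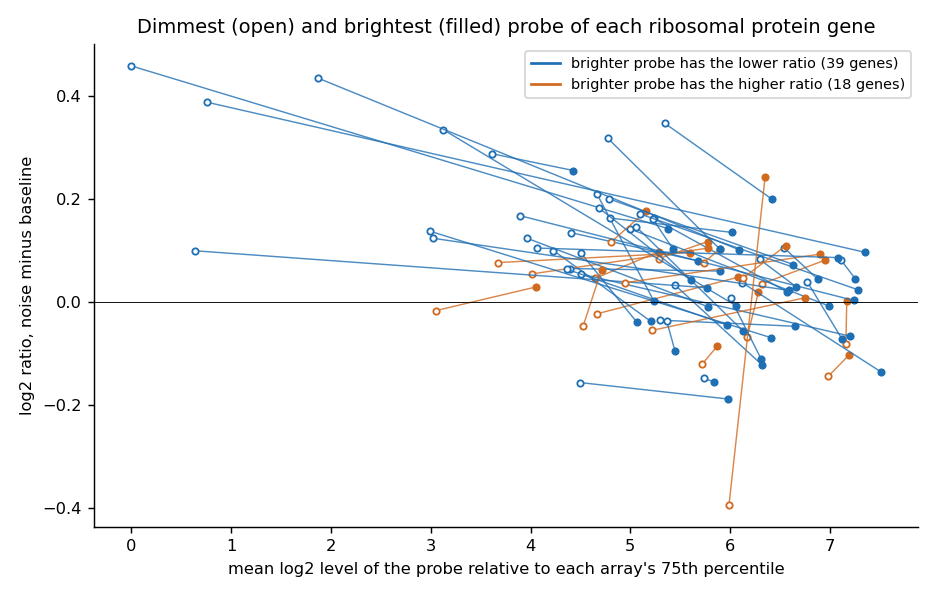
Each line joins the dimmest (open) and the brightest (filled) measured probe above the 75th percentile of 1 ribosomal protein gene, with the mean log2 level on the x axis and the log2 ratio, noise minus baseline, on the y axis. Blue lines are the 39 genes whose brighter probe has the lower ratio and orange lines the 18 with the opposite order. Most lines slope down to the right.

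The 19 measured probes at or below the 75th percentile held much of the scatter. They belong to 18 genes, 14 of the 19 are assigned to transcripts other than curated RefSeq ones, and their ratios had an SD of 0.29, against 0.12 for the 163 brighter probes. Of the 19, 7 had a ratio of 0.25 or more in either direction, against 9 of the 163. Dim genes in general scatter widely as well. Over all 18320 genes with a mean level at or below the 75th percentile, the SD was 0.38. Of these genes, 7163 had a ratio of 0.25 or more in either direction. Without the dim probes, an alternative chosen after seeing the data, the SD over the 82 genes left was 0.10 and their median 0.05. Other bright probes of the array varied more within each band of level. Their SD was 0.28, 0.20 and 0.16 at levels of 0 to 5, 5 to 6 and 6 to 9. For the ribosomal protein probes it was 0.13, 0.12 and 0.09. In the lowest band the brightness was not matched. The median level there was 1.60 for the other probes and 4.43 for the ribosomal protein probes. A ratio of 0.25 or more in either direction was found in 62 of 463 other probes at 5 to 6. At 6 to 9 it was 31 of 322. For the ribosomal protein probes these counts were 2 of 55 and 0 of 61.

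Messages of this family have many processed pseudogene copies, so probes may read several loci. Of the 182 measured probes, 59, in 42 genes, share a run of at least 20 bases with a probe under another name, and 13 genes have only such probes. Many of these names are transcript or probe identifiers, which may stand for the same locus. Only probes of the array were compared, so matches elsewhere in the genome were not searched. A single probe shared such a run with up to 6 other names. In addition 7 measured probes of 4 genes (Rpl13, Rpl36, Rps27 and Rps29) have array coordinates on another chromosome than RefSeq gives the gene. The 59 sharing probes had a median ratio of 0.05 and an SD of 0.10, and the 123 without a shared run had 0.06 and 0.16. The following probes show what such sharing looks like, with the shared run in capitals. The Rpl11 probe (chr4:135605902-135606224, minus strand, mm9) shares 27 bases with a probe of the predicted gene Gm5093, and the Rps24 probe (chr14:25311190-25312666, plus strand) shares 24 bases with one of Gm4832. The pair from Rps28 (chr17:33960058-33960197 and chr17:33960058-33960193, minus strand) shares 30 bases within the gene and read nearly alike, at 0.08 and 0.05:
Rpl11 probe: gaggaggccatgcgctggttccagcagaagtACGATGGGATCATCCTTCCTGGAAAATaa
Rps24 probe: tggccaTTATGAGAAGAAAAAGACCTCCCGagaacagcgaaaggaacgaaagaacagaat
Rps28 first probe: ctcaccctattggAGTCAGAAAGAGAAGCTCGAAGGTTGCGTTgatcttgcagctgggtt
Rps28 second probe: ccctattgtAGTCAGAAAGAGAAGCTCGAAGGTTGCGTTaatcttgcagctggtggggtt

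By place in the ribosome the values were as follows. The stalk, a flexible arm of the large subunit that recruits translation factors, stood at a median of 0.01 over 4 genes. Its base protein Rplp0 read 6.11 after noise and 6.19 at baseline, a ratio of -0.08. Rplp1 was at 0.04 with levels of 6.37 and 6.32, and Rplp2 at -0.02 with 7.09 and 7.11. Rpl12, which holds the base of the stalk, was at 0.05 with median levels of 4.66 and 4.68. All 4 stalk genes lay between -0.08 and 0.05.

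Rpl5 and Rpl11 bind the 5S ribosomal RNA and, outside the ribosome, can bind the p53 regulator Mdm2 when ribosome assembly is disturbed. Rpl5 read 5.06 and 4.91, a ratio of 0.15, and Rpl11 read 6.74 and 6.77, a ratio of -0.03. The 7 genes of proteins at the exit of the peptide tunnel had a median of 0.08, with 6 above 0. Among them Rpl23a stood at 0.11, Rpl19 at 0.10 and Rpl35 at -0.12. The 14 genes of the small subunit's head had a median of 0.07, with 10 above 0 and 4 below, and Rps12 and Rps15 were its highest and lowest.

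Mutations of some of these genes cause Diamond-Blackfan anemia, a failure of red cell production. The 18 such genes had a median of 0.08, with 14 above 0 and 4 below, and ran from -0.12 to 0.16. Rps26 read 5.88 and 5.71, a ratio of 0.16, and Rps7 read 5.04 and 4.90, a ratio of 0.14. Markers of red blood cells were 5 of 5 measured with a median of -0.07 and summed linear levels of 541 (noise) and 600.04 (baseline). Among ribosomal proteins that the name rule misses, Fau, the small-subunit protein fused to a ubiquitin-like protein, was at 0.06, and Gnb2l1 (Rack1), a scaffold on the small subunit, was at 0.08.

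The relatives varied most. Rpl3l, the counterpart of Rpl3 in skeletal and heart muscle, was the lowest of the family, at -3.89 after noise and -3.35 at baseline, a ratio of -0.54 or 1.45-fold lower, from 1 dim probe. Its ratio was -0.24 with normexp background correction and -0.32 with spike-in scaling. Skeletal muscle markers moved with it: 10 of 10 were lower after noise, 5 of them past 2-fold, with a median of -0.97, and their summed linear level was 7.97 after noise and 15.4 at baseline, with all 10 well above background on both arrays. Their part in the value of Rpl3l was not tested. The Rpl3l probe (chr17:24872413-24872681, plus strand, mm9) shares a run of at most 7 bases with any Rpl3 probe, one of which (chr15:79908489-79908772, minus strand) read 5.44 and 5.56:
Rpl3l probe: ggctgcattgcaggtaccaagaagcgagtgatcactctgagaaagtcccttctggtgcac
Rpl3 probe: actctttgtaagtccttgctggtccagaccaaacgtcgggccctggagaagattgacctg

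Rpl36al, a duplicate of Rpl36a that makes a nearly identical protein, was at 0.27, with 0.26 and 0.29 in its 2 probes, both of them bright. Rpl37rt, a retrotransposed copy of Rpl37, read 7.33 and 7.14, a ratio of 0.19, from 1 probe. The only probe of Rpl37 itself read -4.07 and -3.88. Whether the Rpl37rt probe also reads the Rpl37 message was not tested, so neither value is a sure measure of its own gene. Rpl22l1, the relative of Rpl22, read 4.53 and 4.56, a ratio of -0.03. Rps27l, a p53-induced relative of Rps27, was at 0.01, with 3.56 after noise and 3.55 at baseline. Rps4l was at -0.04 (1.94 and 1.99) and Rpl39l, a relative of Rpl39 known from the testis, at -0.09 (-4.21 and -4.12). Rpl10l, the testis relative of Rpl10, did not rise well above background in either sample. Rpl7l1, a relative of Rpl7 and a ribosome assembly factor, was at 0.13 (-1.31 and -1.44). Rps19bp1, a name that only looks alike, encodes a protein that binds Rps19 and was at -0.18 (1.19 and 1.37).

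Related genes were set beside the family. Of 33 genes that are translation factors or have TOP messages, 24 were above 0 and 9 below, with a median of 0.09 and 0 past 2-fold. The 3 farthest from 0 were Hnrnpa1, an RNA-binding protein, at 0.61, Btf3, which guards new peptide chains, at 0.34, and the elongation factor Eef2 at 0.30. Of 11 genes of the mTOR pathway that controls TOP messages, 7 were above 0 and 4 below, with a median of 0.13, which was 0.06 with normexp background correction. In that list the S6 kinase gene Rps6kb2 was at 0.42, Mtor at 0.28, and Tsc1, an inhibitor of mTOR, at -0.32. Of 40 ribosome biogenesis genes, 26 were above 0 and 14 below, with a median of 0.03. Gar1, of the complex that modifies ribosomal RNA, came nearest to 2-fold, at -0.12 after noise and -1.08 at baseline, a ratio of 0.97. Rrp12, which helps to export and mature the subunits, was at 0.51, and Ddx21, a nucleolar helicase, at 0.40.

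The 77 ribosomal proteins of mitochondria, which are products of other nuclear genes, stood on the other side of 0 with this scaling. Their median was -0.06, with 24 above 0 and 53 below, and 0 past 2-fold. With spike-in scaling, which adds the same constant to every gene, their median was 0.15. Mrps6 was the highest at 0.49, and Mrps15 and Mrps5 were at -0.46 and -0.45.

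**Figure D4:**
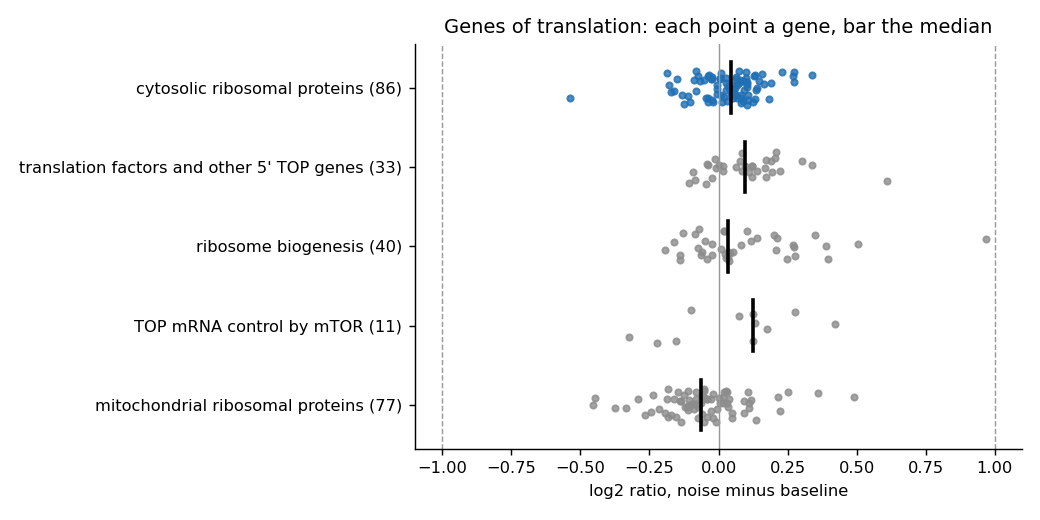
Each point is the log2 ratio, noise minus baseline, of 1 gene in 5 groups of translation genes, with the number of measured genes in brackets, and the black bar is the group's median. Dashed lines mark 2-fold. The 86 cytosolic ribosomal protein genes are the most tightly grouped, with Rpl3l at -0.54 apart from the rest, and the 77 mitochondrial ones have their median below 0.

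Apart from the markers of red blood cells given above, the marker lists differed between the samples as follows. Adipocyte markers were lower after noise in 8 of 8 (median -1.67, 7 past 2-fold, summed linear level 17.9 after noise and 75.2 at baseline). Central neuron markers were lower in 7 of 7 measured, with a median of -2.07 and sums of 1.24 and 7.49, and Slc6a5 was well above background at baseline only. Pituitary markers were lower in 5 of 5 measured, with a median of -2.89 and sums of 5.41 and 38.9, and Tshb was well above background at baseline only. B cell markers were higher in 7 of 7, with a median of 0.61 and sums of 27.0 and 17.0. Inner ear markers, which check the labelled tissue, were 15 of 15 measured, with 11 above 0 and 4 below, a median of 0.24 and sums of 135 and 115. They ran from -0.75 (Slc26a5, the outer hair cell motor prestin) to 0.67 (Pou4f3, a hair cell transcription factor), and the bright genes Coch and Gjb2 carry most of the sums. The part of these markers in the small ratios of the ribosomal protein genes was not tested.

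The promoters of the family were searched for 2 motifs on both strands, in windows from 250 bases before to 50 bases after the start, which RefSeq (GRCm38.p6) gave for 66 of the genes. CCGGAAG, the core bound by ETS-type factors, or its reverse complement was found in 26 of 66, or 39.4%. Of all 27025 genes with such a window it was found in 9.93%. AAGATGGC, part of the site of the factor YY1, or its reverse complement was found in 6, or 9.09%, against 3.19%. A match is a run of letters and not a measured site. As examples from the genes described above, the stretch from 90 bases before to 20 bases after the start is shown for Rpl37 (chr15:5116523-5116632, plus strand) and Rpl11 (chr4:136053374-136053483, minus strand) of GRCm38.p6, with the CCGGAAG match in capitals:
Rpl37 promoter: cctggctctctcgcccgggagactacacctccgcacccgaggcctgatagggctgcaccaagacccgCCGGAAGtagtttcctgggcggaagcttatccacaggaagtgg
Rpl11 promoter: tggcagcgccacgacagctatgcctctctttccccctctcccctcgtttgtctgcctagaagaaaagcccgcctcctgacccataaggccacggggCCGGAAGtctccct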

How the data were processed

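The authors' deposited scanner files give the intensity of each spot. Agilent Feature Extraction 11.5.1.1 produced them, per the file headers, and its processed signal has a background subtracted. A second table deposited by the authors is on a log2 scale: comparison with the scanner files showed log2 of the processed signal minus a constant per array (8.30 noise, 8.12 baseline), with no centring per gene and column medians of -2.81 and -2.79. Each of its columns is 1 sample. Per the labels, labelling with Cy3 started from 0.1 micrograms of RNA, with a kit for low input. Probe coordinates are on mm9, per the file headers, and exon and UTR positions on it are not given here.

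From the intensity, control spots and outlier spots were dropped (77 noise, 58 baseline), repeat spots were averaged as log2 values, and the 75th percentile of each array was subtracted. Gene names are those of the array. All 87 were found in the RefSeq table (GRCm38.p6). Of the 56590 probes on both arrays, 41647 were well above background on both. The number of arrays limits the precision, and with 1 array per group a size rule of 2-fold stood in for a test. Named with values were the 6 highest and 6 lowest genes, all relatives, the 4 with the widest range between probes, the stalk and 5S RNA genes, and up to 3 of each related list; Rps28, Rps24 and the genes listed by range were added after their values were seen. Results of some genes of these groups are not reported here. The members and lists were chosen with earlier results of these data known. Steps were tested on simulated data with changes past 2-fold. That test does not cover ratios as small as those of this family. Alternatives were normexp (offset 50), other scalings, filters and probe rules. Python 3.11.15, pandas 2.3.3, statsmodels 0.14.6 and limma 3.58.1 were used.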

Additional observations from a re-analysis of the deposited data

How the results depend on the processing

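No ribosomal protein gene that was measured on both arrays passed 2-fold under any of the alternatives run. Without a filter on dim probes, 1 gene, Rpl10l, whose probe is dim in both samples, was past 2-fold lower. With spike-in scaling 77.6% of all genes stood above 0. The medians became 0.26 for all ribosomal protein genes, 0.26 for the large subunit and 0.28 for the small subunit, with 1 gene below 0, while all genes past 2-fold split into 340 higher and 189 lower in place of 162 and 332. With normexp background the split was 56 and 74, and the distance of the members' median from that of all genes was 0.13 in place of 0.06. Over all genes the counts past 2-fold were 672 higher and 1296 lower without a filter on dim probes, 118 and 192 with a stricter one, and 52 and 55 with only probes above the 75th percentile, an alternative chosen after seeing the data. Under the alternatives other than spike-in scaling the members' median lay between 0.02 (brightest probe) and 0.07. The sign changed for 28 of 86 genes with spike-in scaling, for 13 with the brightest probe and for 7 each with normexp and median scaling. Rps12 was at 0.12 with the brightest probe, and Rps29 was at 0.44 without probes placed on another chromosome, an alternative chosen after seeing the data. The cause of these moves was not tested. No paired analysis was possible because there was 1 array in either group, and no replicate could be left out. Signal over background limits the dim probes most: Rpl3l, Rpl37 and Rpl39l each rest on 1 of them.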
